A study of Mus musculus with 127 samples.

Results

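The 33 genes described here are genes that mark or are made by the fibroblasts of the meninges, the membranes that wrap the brain, together with the collagens those cells secrete. They were taken by name from a fixed list, and each of the 33 was found among the 54838 gene rows of the bulk RNA-seq count tables of a study of Chd8, the gene of a chromatin remodeller, made from the cortex of adult mice about 60 days old. By role they comprised 5 fibrillar collagens, 3 chains of collagen VI, 5 other collagens, 5 small leucine-rich proteoglycans, 4 other secreted matrix proteins, 2 insulin-like growth factor genes, 4 membrane transporters, 3 genes of retinoid and prostaglandin metabolism and 2 transcription regulators. All 33 passed the filter on low counts in every comparison.

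The libraries came from 2 mouse lines. In the germline line every cell of a heterozygote (HET) carried 1 Chd8 allele with a 5 bp deletion (Chd8+/5bpdel), and wild-type (WT) littermates were the controls. This line gave whole cortex (15 WT, 16 HET libraries), nuclear fractions (12 WT, 9 HET), synaptic fractions (11 WT, 7 HET) and cytosolic fractions (5 WT, 7 HET). In the conditional line Cre recombinase was driven by Camk2a, a gene of excitatory forebrain neurons, so a floxed Chd8 allele was a target in those neurons and not by design in fibroblasts. Its nuclear and synaptic fractions came from Camk2a-Cre mice that were Chd8+/+ (WT, 4 nuclear and 4 synaptic libraries), Chd8+/flox (HET, 6 and 5) or homozygous for the floxed allele (HOM, 3 and 5), so that controls and mutants all carried Cre. Its whole cortex came from Chd8+/flox mice with Cre (6) and without Cre (8), so that both of those groups carried the floxed allele. Synaptic and cytosolic fractions were made from frozen cortex with Syn-PER reagent and nuclear fractions with NE-PER reagent, and both sexes were used.

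Meningeal fibroblasts lie in the pia, arachnoid and dura and also along larger vessels. They secrete fibrillar collagens, which assemble into fibres, and the small proteoglycans that bind those fibres and set their spacing. In the adult brain they are also known for solute transporters, for making retinoic acid and prostaglandin D2, and for supplying growth factors of the insulin-like family. A cortical dissection holds some pia and vessel wall, so these genes are read in bulk cortex beside a much larger mass of neurons and glia, and several of the collagens are also made by neurons, astrocytes, oligodendrocyte precursors or vessel cells. In bulk samples, fewer fibroblasts and less RNA per fibroblast cannot be told apart.

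Libraries held between 19001521 and 56579360 gene counts, except the conditional cortex libraries, which held 98112666 to 134594327. Levels are given as CPM, each gene's count scaled to the total count of its library. Chd8 in germline cortex ran from 65.95 to 111.8 CPM in WT (median 99.79) and from 41.73 to 81.33 CPM in HET (median 61.74), and the ranges overlapped. Germline synaptic WT males 1 and 2 stood apart: 8 nuclear-retained RNAs (long noncoding RNAs that stay in the nucleus) summed to 31600 and 33130 CPM there against 481.6 to 3340 CPM in the other 16 synaptic libraries. Col5a1 was at 295.4 and 266.9 CPM and Col6a1 at 415.2 and 355.5 CPM in them, against 5.962 to 31.48 and 12.97 to 50.47 CPM in the rest. Comparisons that use these libraries are given below also without them where a named value or count differed. In 2 further libraries, germline nuclear WT male 7 and HET female 4, sex-linked transcripts went against the labelled sex. One conditional animal whose fractions carry different genotype labels (HET for the nuclear, HOM for the synaptic library) was left out of the paired comparisons. The comparisons of genotypes kept both libraries of that animal as labelled, as conditional nuclear HET female 4 and synaptic HOM female 2.

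The sequences just upstream of 6 members are shown because these members represent 2 sets of members, described further on, that varied with different measures between cortex libraries. For the first measure, nuclear-retained RNA, the share of members with a correlation of 0.5 or more (9 of 33) was near that of all genes (25.1%). Each is the 250 bases before the RefSeq transcription start on GRCm38.p6, written 5′ to 3′ on the gene's strand. Capitals mark matches, searched on both strands, to the TATA box (written TATAAA), to the letters of the CCAAT box or to the GC box (written GGGCGG), none of which contains another. Col5a1 (chr2:27886175-27886424, plus strand), Col16a1 (chr4:130047590-130047839, plus strand) and Col6a1 (chr10:76726045-76726294, minus strand) varied with nuclear-retained RNA.
Col5a1: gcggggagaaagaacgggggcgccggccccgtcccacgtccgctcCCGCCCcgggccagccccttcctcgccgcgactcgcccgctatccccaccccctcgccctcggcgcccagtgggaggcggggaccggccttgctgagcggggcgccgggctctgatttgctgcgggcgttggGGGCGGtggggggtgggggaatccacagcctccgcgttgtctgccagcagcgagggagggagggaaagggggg
Col16a1: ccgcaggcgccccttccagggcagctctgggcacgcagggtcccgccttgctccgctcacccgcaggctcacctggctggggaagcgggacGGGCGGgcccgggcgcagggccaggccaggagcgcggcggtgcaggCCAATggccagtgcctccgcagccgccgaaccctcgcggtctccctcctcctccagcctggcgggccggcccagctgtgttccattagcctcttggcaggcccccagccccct
Col6a1: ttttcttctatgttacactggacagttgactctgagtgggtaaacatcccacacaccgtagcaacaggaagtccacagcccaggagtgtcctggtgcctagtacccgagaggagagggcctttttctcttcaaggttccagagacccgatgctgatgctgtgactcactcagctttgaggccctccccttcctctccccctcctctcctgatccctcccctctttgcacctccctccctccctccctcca
Col3a1 (chr1:45311288-45311537, plus strand), Aldh1a2 (chr9:71215539-71215788, plus strand) and Ptgds (chr2:25469750-25469999, minus strand) varied with Dcn.
Col3a1: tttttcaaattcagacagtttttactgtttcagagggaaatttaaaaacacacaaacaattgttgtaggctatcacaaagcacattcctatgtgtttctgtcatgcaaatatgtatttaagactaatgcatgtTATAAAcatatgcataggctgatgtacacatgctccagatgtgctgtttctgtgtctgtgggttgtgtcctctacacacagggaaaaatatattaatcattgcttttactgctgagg
Aldh1a2: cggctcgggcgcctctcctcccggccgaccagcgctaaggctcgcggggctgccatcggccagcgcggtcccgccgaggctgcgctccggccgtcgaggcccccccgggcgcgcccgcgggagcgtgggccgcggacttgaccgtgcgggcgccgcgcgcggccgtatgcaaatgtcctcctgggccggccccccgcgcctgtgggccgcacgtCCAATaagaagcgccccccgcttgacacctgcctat
Ptgds: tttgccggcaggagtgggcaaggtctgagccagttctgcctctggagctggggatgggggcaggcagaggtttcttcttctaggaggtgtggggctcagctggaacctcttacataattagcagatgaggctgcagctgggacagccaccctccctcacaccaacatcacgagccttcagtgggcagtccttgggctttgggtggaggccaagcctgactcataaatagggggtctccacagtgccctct
GC content was 76.4% for Col5a1, 75.6% for Col16a1 and 56% for Col6a1, and 35.2% for Col3a1, 77.6% for Aldh1a2 and 58.4% for Ptgds. Over all members of the first set with a window (6 of 9) the median was 67.6%, and over those of the other (11 of 14) it was 51.2%, with overlapping ranges (53.6% to 76.4% and 35.2% to 77.6%), against a median of 52.4% over 32851 RefSeq windows of the same length. Windows were found for 24 of the 33 members, 32 windows in all. Of these windows 6.25% held a TATA box match, 31.2% a CCAAT match and 46.9% a GC box match, against 12.4%, 33.8% and 32.7% of all windows. A match here is a description of letters and not a binding site.

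Per kilobase of exon, the list spanned a wide range in germline WT cortex, and its highest gene was not a collagen. Ptgds, which makes prostaglandin D2 and is known from oligodendrocytes as well as meninges, stood at 265.9 ± 58.2 CPM per kilobase of exon (CPM per kb; SD, n = 15). It was followed by Igfbp2, a secreted binding protein for insulin-like growth factors, at 23.5 ± 4.61 CPM per kb, and Col6a1, a chain of the beaded-filament collagen VI, at 17.6 ± 6.17 CPM per kb. Mgp, the matrix Gla protein that inhibits calcification, reached 10.2 ± 1.97 CPM per kb. The chains of type I and type III collagen, the main products of fibroblasts elsewhere in the body, were much lower, with Col1a1 at 2.00, Col1a2 at 1.75 and Col3a1 at 0.406 CPM per kb. Islr, a stromal surface protein, and Fmod were neighbours in this order, at 6.08 ± 1.34 and 6.00 ± 1.77 CPM per kb, and did not differ beyond their spread. The same held for Col1a1 (± 0.35), Col1a2 (± 0.338) and Dcn, at 1.66 ± 0.478 CPM per kb.

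**Figure D1:**
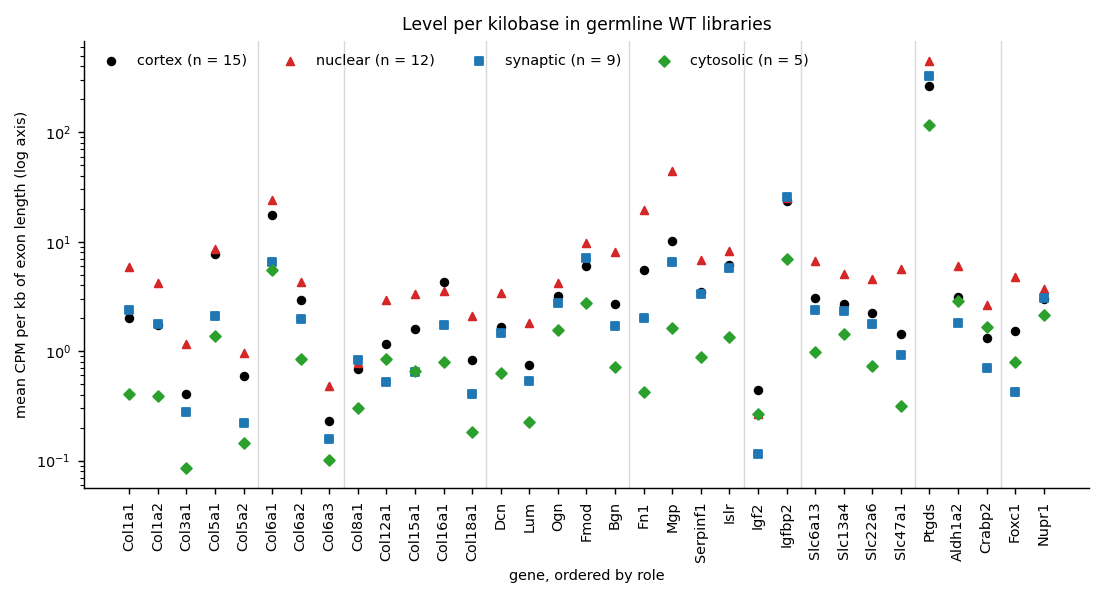
Level of each of the 33 genes in germline WT libraries, in CPM per kilobase of exon on a log axis, with grey lines between roles; symbols are the means over the WT libraries of each fraction (15 cortex, 12 nuclear, 9 synaptic and 5 cytosolic libraries, without synaptic WT males 1 and 2). Ptgds, at 265.9 CPM per kb in cortex, lies above all others, and the lowest in cortex is Col6a3, at 0.228 CPM per kb.

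Across the 31 germline cortex libraries the 33 genes did not vary as one group. A set made up mostly of collagens varied with the nuclear-retained RNAs, though the share of members that did so was near that of all genes. Another set varied with Dcn, the gene of decorin. It held the other proteoglycans except Bgn, the transporters, the genes of retinoid and prostaglandin metabolism, Islr, Igf2, Col3a1 and Col1a2. The first set was led by Col5a1, a chain of the type V collagen that starts fibrils, which ran from 20.03 to 117.5 CPM in WT (median 52.1) and from 7.46 to 103.2 CPM in HET (median 57.9). The genotypes overlapped over nearly this whole span.

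The summed level of the 8 nuclear-retained RNAs ran from 779 to 10240 CPM over the same libraries. Col5a1 correlated with it at Pearson's r = 0.964 (permutation p = 1e-05, adjusted 5.65e-05) and Spearman's rho = 0.902 (permutation p = 1e-05, adjusted 5.72e-05), and r was 0.931 without the 2 libraries farthest from the median of that sum; 1e-05 is the smallest p these permutations can give. The coefficient was 0.978 among the 15 libraries of 1 labelled batch and 0.93 among the 16 of the other. Col16a1, a collagen that binds to fibrils, had r = 0.958, Col6a1 0.944, Col15a1, of the basement membrane zone, 0.927, Col6a2 0.848 and Col5a2 0.84 (each with an adjusted p of 5.65e-05, and with r from 0.792 to 0.983 within the batches). In all, 9 of 33 members reached r of 0.5 or more, against 25.1% of the 17066 genes tested, and 6 of 33 reached 0.8, against 10.6%. As a share, the members were thus near the background. Col1a1 (r = 0.143) and Col3a1 (r = −0.077), the fibrillar chains most typical of fibroblasts, were not among them. A correlation between such levels is a description of libraries that share dissection, depth and RNA quality, and the part of nuclear RNA content in it was not tested.

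**Figure D2:**
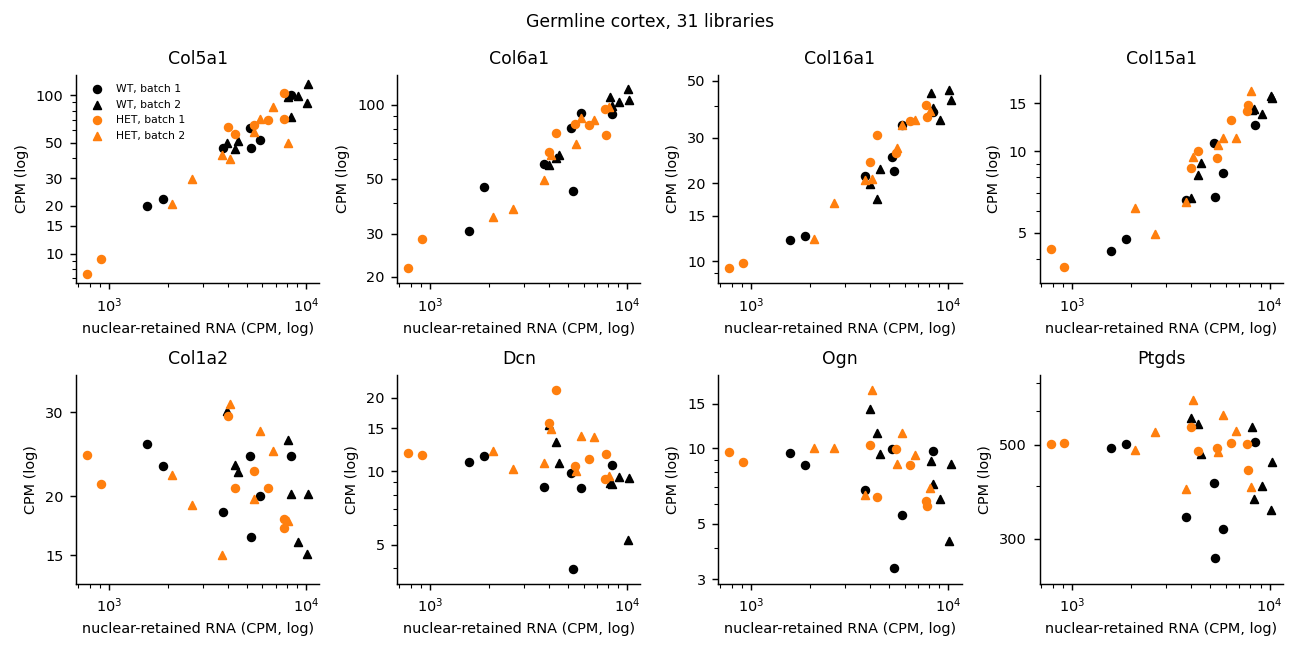
Level of 8 members (CPM, log axis) against the summed level of 8 nuclear-retained RNAs (CPM, log axis), 1 point per germline cortex library, black for WT and orange for HET, circles and triangles for the 2 labelled batches. Over the 31 germline cortex libraries Col5a1 follows the nuclear-retained RNAs (r = 0.964) while Col1a2 (r = −0.285) and Ptgds (r = −0.247) do not.

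For Dcn the share of members was above that of all genes. Of the other 32 members, 14 correlated with Dcn at r of 0.5 or more across the 31 cortex libraries, against 2.24% of all genes, and the median r of the members was 0.43 against −0.03. Ptgds was the closest, at Pearson's r = 0.755 (permutation p = 1e-05, adjusted 0.0155) and Spearman's rho = 0.698 (permutation p = 4e-05, adjusted 0.0297), and r was 0.604 without the 2 libraries farthest from the median of Dcn. Aldh1a2, the enzyme that makes retinoic acid, followed at r = 0.736, then Ogn (osteoglycin, a collagen-binding proteoglycan) at 0.698, Col3a1 at 0.694 and Slc6a13, a GABA transporter of meningeal cells, at 0.694. Lum (lumican) and Fmod (fibromodulin), proteoglycans like decorin, had r of 0.669 and 0.668. Adjusted over all genes, the p of these 7 coefficients ran from 0.0155 to 0.0279; it was above 0.05 for Igf2, Slc47a1 and Crabp2, which also had r over 0.5. Within batches r ran from 0.394 (Lum) to 0.933 (Fmod) over the 7. Several of these values fell below 0.5 without the 2 libraries farthest from the median of Dcn: r was then 0.432 for Ogn, 0.485 for Col3a1, 0.44 for Fmod, 0.331 for Slc13a4, a sulfate transporter, and 0.29 for Slc22a6, an organic anion transporter. Lum kept 0.638 and Slc6a13 0.539. Ptgds has the highest CPM of the members. The summed level of the other members had r = 0.78 (rho = 0.76) with the nuclear-retained RNAs, and 0.78 and 0.73 within the batches. It had r = 0.61 (rho = 0.60) with the summed endothelial and mural markers, and 0.78 and 0.82 within the batches. With the summed choroid plexus markers r was −0.06 (rho = −0.01), and −0.2 and 0.43 within the batches. Single members with r of 0.5 or more with the choroid plexus sum were Col18a1 (0.59) and Col8a1 (0.512), against 0.475% of all genes, and neither passed when adjusted over all genes (adjusted permutation p = 0.282 and 0.425).

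The tie between Col5a1 and the nuclear-retained RNAs was seen in most other sets of libraries, with r of 0.816 in conditional cortex (14 libraries), 0.8 in the conditional nuclear fraction (13), 0.86 in the conditional synaptic fraction (14), 0.936 in the cytosolic fraction (12) and 0.718 in the germline synaptic fraction (16, without WT males 1 and 2). In the germline nuclear fraction (21) it was −0.243. In the order given, 7.67%, 27.8%, 17.4%, 31.2%, 12.1% and 9.03% of all genes had r of 0.5 or more with these RNAs. The shares at 0.8 or more were 1.2%, 6.65%, 1.96%, 12.2%, 1.83% and 0.211%. For Dcn, 19 of 32 members had r of 0.5 or more in the conditional nuclear fraction, against 8.33% of all genes, and 7 of 32 in the germline nuclear fraction, against 5.55%.

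In the 14 conditional cortex libraries the list split around Dcn. Dcn went with a broad division of the transcriptome, since 32.1% of all genes had r of 0.5 or more with it and 26.3% had r of −0.5 or less. Of the members 10 were on the positive side, none of them a collagen, and 17 on the negative side, 11 of them collagens. Dcn itself ran from 12.29 to 22.35 CPM there. Col1a1 correlated with it at Pearson's r = −0.818 (permutation p = 0.00067, adjusted 0.00286) and Spearman's rho = −0.727 (permutation p = 0.00446, adjusted 0.0155), and r was −0.755 without the 2 libraries farthest from the median of Dcn. Mgp, in contrast, had Pearson's r = 0.839 (permutation p = 0.00029, adjusted 0.00167) and Spearman's rho = 0.767 (permutation p = 0.00215, adjusted 0.0101), and r was 0.767 without the 2 libraries farthest from the median of Dcn. The noCre male 4 and noCre females 2 and 3 had high Mgp (23.60, 30.06 and 31.81 CPM) with low Col1a1 (6.746, 7.277 and 7.549 CPM), and noCre males 1 and 5 the opposite (8.492 and 13.97 CPM of Mgp, 17.82 and 14.63 CPM of Col1a1). Cre libraries lay on both sides. The 10 members on the positive side had a median exon length of 2404 bases and the 17 on the negative side one of 7021 bases, while their median GC content was 54.5% and 55.7%. The part of transcript length or RNA quality in this was not tested.

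Germline cortex was the largest comparison of genotypes, and it asks whether loss of 1 Chd8 allele in all cells moved these genes. No member passed edgeR's quasi-likelihood test at an adjusted p under 0.05, where 0.328% of 17074 genes did. At an unadjusted p under 0.05 there were 8 members, 7 of them higher in HET, against 9.14% of all genes. The log2 difference was above 0 for 24 of 33 members, with a median of 0.11 against −0.001 over all genes. DESeq2 called Slc47a1 alone and voom called Col1a1 alone. The 0.328% of all genes is for edgeR, and the shares for those tools are not given here.

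Slc47a1, a transporter that extrudes organic cations, had the smallest p of the 33. It ran from 2.73 to 8.12 CPM in WT (median 4.65) and from 3.53 to 15.7 CPM in HET (median 7.36). The HET median was close to the highest WT library, but the ranges overlapped. The log2 difference was 0.67 ± 0.17 (SE, edgeR adjusted p = 0.0783). A permutation test of the log2 CPM without sex and batch gave p = 0.0034 (two-sided, 1 of 35 such tests on single members, unadjusted). These 35 tests were run only where edgeR's unadjusted p on the same libraries was under 0.05. A small p was thus favoured beforehand, and it is not separate support. Within the 2 labelled batches the difference was 0.60 ± 0.25 and 0.74 ± 0.22. DESeq2 gave 0.66 with an adjusted p of 0.0135. Leaving out HET female 6 or HET male 4 brought the edgeR adjusted p to 0.0351 or 0.034. These were the only 2 of 31 refits with 1 library left out in which Slc47a1 was called.

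Of the fibrillar collagens, Col1a1 and Col3a1 were higher in HET before adjustment, while the type V chains were not. Col1a1, a chain of the collagen that makes most fibres, ran from 9.80 to 16.6 CPM in WT (median 13.6) and from 11.2 to 23.2 CPM in HET (median 16.5). The 2 groups overlapped between 11.2 and 16.6 CPM, and the HET median was close to the highest WT library. The log2 difference was 0.34 ± 0.10 (edgeR adjusted p = 0.151), and it was 0.35 and 0.32 within the batches. voom gave 0.39 with an adjusted p of 0.0466. Col3a1 ran from 1.80 to 6.33 CPM in WT (median 3.78) and from 3.07 to 7.66 CPM in HET (median 5.29), a difference of 0.40 ± 0.16 (edgeR adjusted p = 0.396). Col5a1 differed by −0.65 in 1 batch and by 0.07 in the other.

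The proteoglycans all had differences above 0, with a median of 0.26 over 5 genes. Dcn ran from 3.98 to 15.4 CPM in WT (median 9.49) and from 9.31 to 21.6 CPM in HET (median 11.7), a difference of 0.36 ± 0.14 (edgeR adjusted p = 0.418). The lowest HET library was near the WT median. Lum differed by 0.35 ± 0.14 (edgeR adjusted p = 0.422). The 4 transporters had a median of 0.24, with Slc6a13 at 0.27 ± 0.09 (edgeR adjusted p = 0.304). Ptgds ran from 270.2 to 577.8 CPM in WT (median 455.2) and from 393.7 to 637.0 CPM in HET (median 502.3), a difference of 0.20 ± 0.09 (edgeR adjusted p = 0.497). The 5 other collagens went the other way, all below 0 with a median of −0.14, and Col18a1, the collagen from which endostatin is cut, had −0.21 ± 0.08 (edgeR adjusted p = 0.378). Col18a1 was also the member that correlated most with the choroid plexus sum.

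Genes read beside the list in the same cortex libraries differed in both directions. Of 17 further fibroblast markers none was called, 14 had differences above 0 and the median was 0.21. The 9 choroid plexus and ependymal markers were all lower in HET, with a median of −1.31; Aqp1, a water channel of the choroid plexus, was called at −1.92 ± 0.37 (edgeR adjusted p = 0.00961). Their sum ran from 11.1 to 582 CPM in WT and from 6.8 to 49 CPM in HET. All 8 nuclear-retained RNAs were below 0, none was called, and their median was −0.32. With their summed level as a covariate, chosen after seeing the data, the Slc47a1 difference was 0.61 and that of Col1a1 0.36, both with an edgeR adjusted p of 0.104, and Col5a1 was at 0.00. The part of the choroid plexus markers in these differences was not tested.

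**Figure D3:**
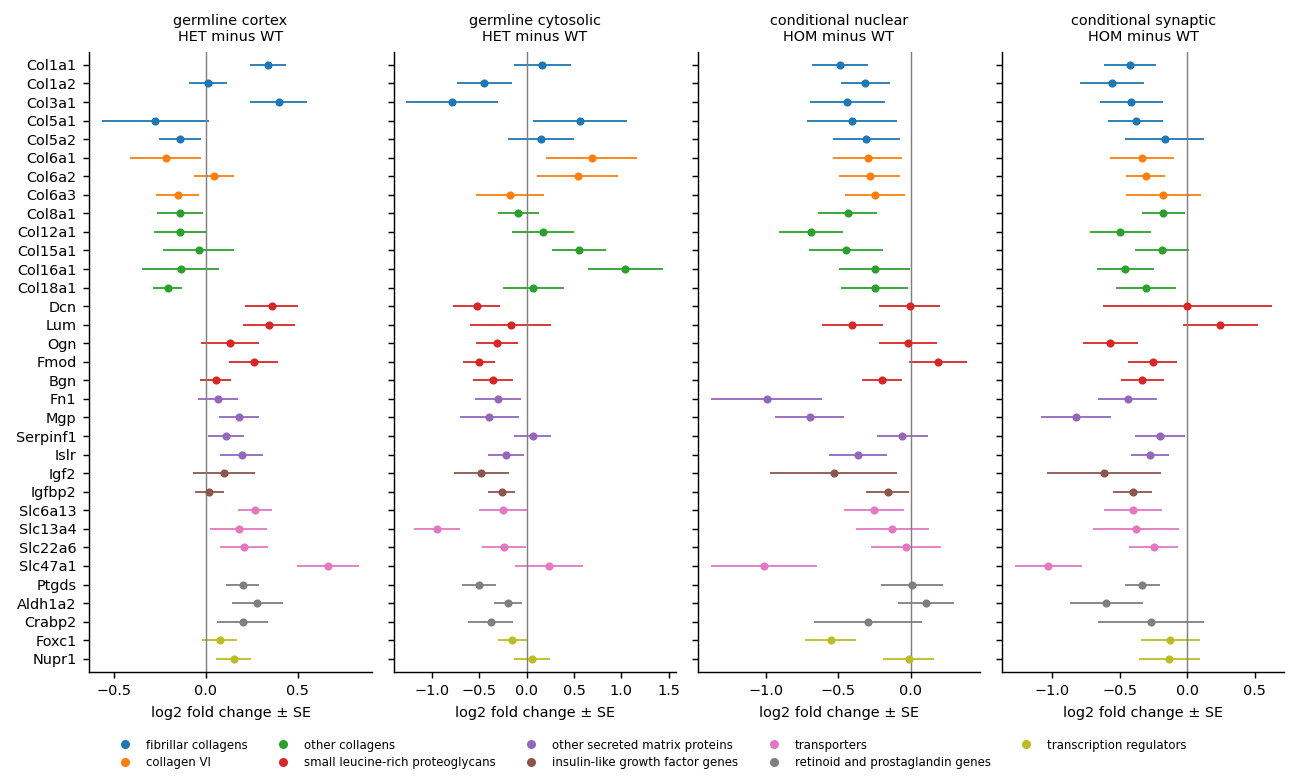
Log2 difference between genotypes for each of the 33 genes in 4 comparisons, with bars of 1 SE from the fitted model and colours for roles. No difference passes an adjusted p under 0.05; in germline cortex 24 of 33 lie above 0, and in the conditional HOM synaptic fraction 32 of 33 lie below 0.

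In the fractions of the germline line, no member passed edgeR's test between heterozygotes and wild types. In the nuclear fraction 0.0151% of 19912 genes were called, and 1 member, Col1a2, had an unadjusted p under 0.05, against 7.27% of genes (log2 difference −0.34, adjusted p = 0.615). In the synaptic fraction 0% of 17178 genes were called, and the 1 such member, against 10.9% of genes, was Aldh1a2, at −0.54 (adjusted p = 0.426), and at −0.35 without HET female 4. Without WT males 1 and 2, 1.09% of 16862 genes and 0 members were called there. DESeq2 and voom called 0 members in either fraction. Medians over the list were −0.11 and −0.05, and that of the synaptic fraction became 0.04 without WT males 1 and 2. Batch was fitted in both as groups of months. With 6 batch levels, which kept each first date label apart, the medians were 0.05 in the nuclear and 0.49 in the synaptic fraction.

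In the cytosolic fraction 0% of 18454 genes and 0 members were called, and 5 members had an unadjusted p under 0.05, against 3.18% of all genes. Slc13a4 was at 4.931, 9.190, 3.390, 6.223 and 8.955 CPM in WT and between 2.173 and 5.519 CPM in the 7 HET libraries, a log2 difference of −0.94 (edgeR adjusted p = 1). Of the 5 WT libraries, 2 lay inside the HET range. Col16a1 was at 6.724, 5.232, 1.873, 4.951 and 8.195 CPM in WT and at 15.87, 5.037, 11.27, 12.36, 10.99, 5.403 and 18.54 CPM in HET, a difference of 1.04 (edgeR adjusted p = 1), which was 0.63 without HET male 2. Of these 7 HET libraries, 2 lay inside the WT range. Choroid plexus markers summed to 12.43 to 346.9 CPM in WT and 6.616 to 15.3 CPM in HET, and nuclear-retained RNAs to 3501 to 14540 and 3886 to 13720 CPM. Their part in these values was not tested.

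In the conditional line the question is whether loss of Chd8 in excitatory neurons came with a change in these genes of other cells. Between whole cortex with and without Cre 0 members and 0% of 21798 genes were called by edgeR, DESeq2 and voom called 0 members, and the 1 member with an unadjusted p under 0.05, against 3.01% of genes, was Col5a1, at −0.70 (adjusted p = 0.886). In the same comparison the median of the 8 nuclear-retained RNAs was −0.67, and 6 of 8 were at an unadjusted p under 0.05. In the fractions, HET and HOM share their WT controls, so their values are set side by side and not compared. In HET, 0% of genes were called in the nuclear fraction (21133 tested) and in the synaptic fraction (17505 tested), and 1 and 0 members had an unadjusted p under 0.05, against 4.44% and 4.28% of genes. DESeq2 and voom called 0 members in either. The 1 member was Slc6a13 in the nuclear fraction, at −0.37 (edgeR adjusted p = 0.938), and at −0.23 without WT female 2.

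HOM libraries were lower in most members in both fractions, but no member and 0% of genes passed edgeR's test in either. In the nuclear fraction 30 of 33 log2 differences were below 0 (median −0.30, all genes −0.01) and 7 members had an unadjusted p under 0.05, where 11.6% of all genes did. In the synaptic fraction 32 of 33 were below 0 (median −0.33, all genes 0.00) and 11 had an unadjusted p under 0.05, against 4.78%. Single libraries set the size of these medians. Without HOM female 1 the nuclear median was −0.13 and 10 members were above 0. Without WT male 2 the synaptic median was −0.19 and 5 were above 0. The synaptic HOM libraries include female 2, from the animal with 2 genotype labels. Over the alternative settings, 1 of which left that animal out, the synaptic median ran from −0.394 to −0.264. DESeq2 and voom called 0 members in either fraction.

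Slc47a1 had the largest log2 difference of the members in both HOM fractions, and Mgp followed it in the synaptic fraction. In the synaptic fraction Slc47a1 was at 2.965, 3.887, 2.953 and 3.535 CPM in WT and at 1.756, 1.678, 2.071, 1.169 and 1.387 CPM in HOM. The groups did not overlap, and the log2 difference was −1.03 ± 0.25 (edgeR adjusted p = 0.936). The 5 HET libraries, from 1.341 to 3.58 CPM, covered both. The share of all genes without overlap was not computed, and an exact permutation test of 5 against 4 libraries cannot give a p below 0.0159. In the nuclear fraction Slc47a1 was at 7.215, 11.09, 5.930 and 12.71 CPM in WT and at 3.158, 7.361 and 2.983 CPM in HOM, a difference of −1.02 ± 0.37 (edgeR adjusted p = 0.423). There, 1 HOM library lay among the WT libraries.

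Mgp in the synaptic fraction was at 4.419, 4.133, 3.485 and 5.916 CPM in WT and at 2.479, 2.710, 3.402, 1.402 and 2.606 CPM in HOM, a difference of −0.82 ± 0.26 (edgeR adjusted p = 0.936). In the nuclear fraction it was at 19.29, 26.20, 30.00 and 32.91 CPM in WT and at 14.61, 16.88 and 16.67 CPM in HOM, a difference of −0.70 (edgeR adjusted p = 0.423). Neither pair of groups overlapped, but the share of all genes without overlap was not computed. An exact permutation test of 3 HOM against 4 WT libraries cannot give a p below 0.0571. In the nuclear fraction Fn1, fibronectin, had a difference of −0.996, larger than that of Mgp, but its libraries, at 65.12, 113.0, 194.6 and 100.3 CPM in WT and at 30.72, 61.33 and 94.26 CPM in HOM, overlapped. Col1a1 and Col12a1, a fibril-associated collagen, also had nuclear HOM libraries below all WT libraries. Col1a1 was at 20.79, 26.96, 21.10 and 33.79 CPM in WT and at 14.74, 19.18 and 20.01 CPM in HOM (difference −0.49). Col12a1 was at 57.27, 81.66, 51.69 and 48.41 CPM in WT and at 23.50, 38.70 and 38.83 CPM in HOM (difference −0.69, and −0.33 without HOM female 1).

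Markers of other cells also differed in the HOM libraries. In the HOM nuclear fraction all 21 endothelial and mural markers were below 0 (median −0.75, 14 with an unadjusted p under 0.05, none called); their sum ran from 1030 to 2528 CPM in WT and from 608.7 to 1541 CPM in HOM. The 15 basement membrane genes, which include type IV collagens and laminins, were all below 0 too, with a median of −0.49. Nuclear-retained RNAs summed to 20480 to 33800 CPM in WT and 16960 to 26080 CPM in HOM. In the synaptic fraction the endothelial sum was 126 to 163.2 CPM in WT and 103.3 to 150.7 CPM in HOM. The part of vessel RNA and of nuclear RNA in the HOM differences was not tested.

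**Figure D4:**
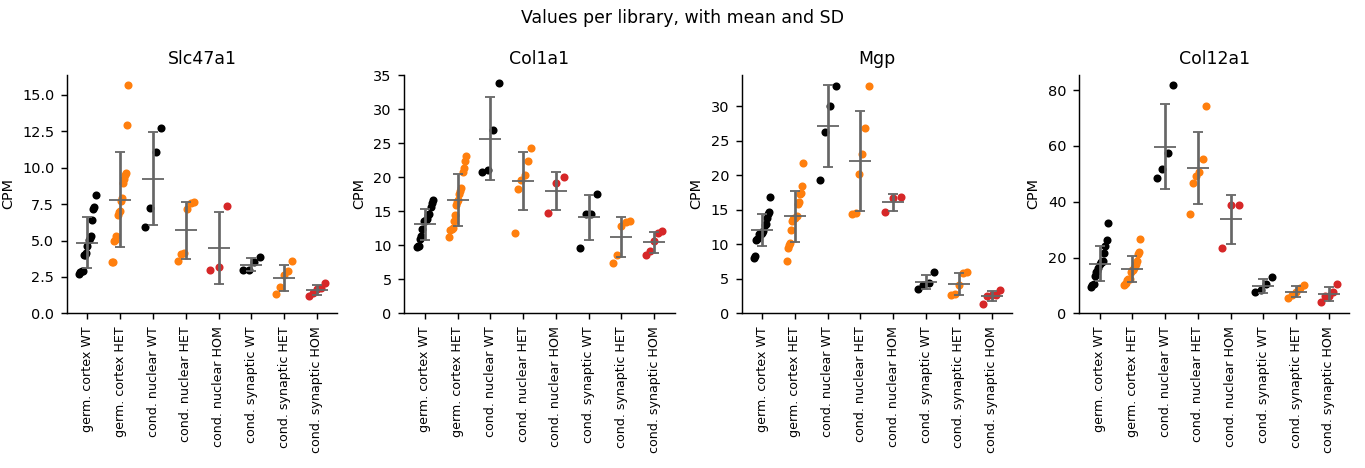
CPM of Slc47a1, Col1a1, Mgp and Col12a1 in each library of germline cortex (germ.) and of the conditional (cond.) nuclear and synaptic fractions, with the mean and SD of each group, in black for WT, orange for HET and red for HOM. For Slc47a1 the 5 conditional synaptic HOM libraries, at most 2.071 CPM, lie below all 4 WT libraries, at least 2.953 CPM, while in germline cortex HET and WT overlap. The share of all genes without overlap was not computed.

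Synaptic and nuclear libraries of the same animals were compared to see where in the tissue fractions these RNAs were recovered. Most members were lower in the synaptic fraction. By edgeR with the animal as a block, 21 of 33 members fell and 0 rose in germline WT (10 animals), where 65.8% of 18879 genes were called. In germline HET (5 animals) 23 fell and 2 rose, with 72.9% of all genes called; in conditional WT (4 animals) 20 fell and 4 rose, with 67% called; and in conditional mutants (8 animals) 20 fell and 2 rose, with 71.3% called. The share of members called was thus near that of all genes, but the direction was not. Over all genes 30.8% rose and 35.1% fell in germline WT, 34.5% and 38.5% in germline HET, 31.9% and 35.1% in conditional WT, and 34.2% and 37.1% in conditional mutants. The members' median log2 differences of −0.98, −0.75, −0.56 and −0.49 lay below the all-gene medians of −0.06, −0.04, −0.06 and −0.04. Without synaptic WT males 1 and 2, 26 members fell and 2 rose in germline WT. The shares of all genes in that refit are not given here, so these counts cannot be set against them.

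These differences are relative to the scaling of the libraries, and the few rises depended on it. The main fit scales libraries by TMM, which takes most genes as unchanged. RLE scaling and DESeq2 also called each of these rises. With scaling by total counts alone, an alternative chosen after seeing the data, the median of all genes shifted by −0.50, −0.61, −0.53 and −0.51 in germline WT, germline HET, conditional WT and conditional mutants. On that scale 28, 27, 29 and 30 of 33 members fell and none rose, where 54.5%, 56.8%, 56.3% and 63.2% of all genes fell. The members' medians were then −1.49, −1.36, −1.09 and −1.003, against −0.56, −0.65, −0.59 and −0.55 for all genes.

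Foxc1, Mgp, Fn1 and Col12a1 each differed by more than any fibrillar collagen in all 4 comparisons. Foxc1, a forkhead factor needed for meningeal development, ran from 16.6 to 48.1 CPM in the nuclear and from 2.06 to 11.7 CPM in the synaptic libraries of the 10 germline WT animals, without overlap. It fell by 2.51, 2.65, 2.39 and 2.04 on the log2 scale in germline WT, germline HET, conditional WT and conditional mutants (edgeR adjusted p from 1.14e-10 to 8.36e-06). Mgp ran from 33.1 to 85.4 CPM against 5.42 to 19.7 CPM in germline WT, and fell by 2.14, 2.32, 2.06 and 2.01. Fn1 ran from 137.0 to 334.8 CPM against 10.51 to 105.7 CPM, and fell by 2.504, 2.68, 1.84 and 1.38. Without synaptic WT males 1 and 2 the germline WT values of Foxc1, Mgp and Fn1 were −2.82, −2.11 and −2.94, and the highest synaptic libraries were at 3.955, 11.77 and 40.26 CPM. Foxc1, Mgp and Fn1 were each lower in the synaptic library of every germline WT animal. The shares of all genes without overlap, or lower in every animal, were not computed.

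Fibrillar collagens fell less, and unequally. Col3a1 fell by 1.46, 1.33, 1.02 and 0.75 in the 4 comparisons, all called, while Col1a1 fell by 0.80, 0.67, 0.33 and 0.28, also all called. The calls of Col1a1 in the conditional line did not hold throughout. Without the animal as a block the adjusted p was 0.0898 in WT and 0.081 in mutants. The call in WT was lost without male 2, female 1 or female 2 (−0.21 and an adjusted p of 0.148 without female 1), and that in mutants without 1 of 3 of the 8 animals (HET male 2, HOM male 1 or HOM male 2, adjusted p up to 0.0835). Col1a2, the partner chain of Col1a1 in type I collagen, fell by 0.85 and 0.48 in the germline animals and was at −0.12 and −0.17 in the conditional animals (edgeR adjusted p = 0.293 and 0.165). Col5a1 was at −1.02 in germline WT (edgeR adjusted p = 0.141) and at −1.73 without synaptic WT males 1 and 2. It fell by 1.82, 1.48 and 1.36 in the other 3 comparisons. Col6a1 gave −0.73 (edgeR adjusted p = 0.179), and −1.36 without them. Of the other collagens Col12a1 fell by 1.502, 2.36, 2.07 and 2.00, and Col15a1 by 1.34, 2.20, 1.30 and 1.22; without the 2 libraries the germline WT values were −2.03 and −1.87.

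A few members were called higher in the synaptic fraction with TMM, RLE and DESeq2 scaling, but not with scaling by total counts. Col8a1, a network-forming short-chain collagen, rose on that scale by 0.90, 0.51 and 0.59 in germline HET, conditional WT and conditional mutants (edgeR adjusted p = 0.00366, 0.00515 and 2.38e-05), with 0.36 in germline WT (adjusted p = 0.148), and 0.54 there without synaptic WT males 1 and 2 (adjusted p = 0.0166). Scaled by total counts it was at 0.29, −0.02 and 0.08 in those 3 groups and at −0.15 in germline WT, none of them called. Igfbp2 rose on the TMM scale by 0.66, 0.44 and 0.31 in the same 3 (edgeR adjusted p = 0.00149, 0.000928 and 0.00726), with 0.33 in germline WT (adjusted p = 0.172), and 0.64 there without those 2 libraries (adjusted p = 1.09e-05). Scaled by total counts it was at 0.05, −0.09 and −0.21, the last of these called as lower (edgeR adjusted p = 0.0432). In CPM, Igfbp2 ran from 35.3 to 66.7 in nuclear and from 19.5 to 57.4 in synaptic libraries of germline WT animals, overlapping widely. Within animals it was higher in the synaptic library in 7 of these 10. Without those 2 libraries the synaptic range was 37.41 to 57.43 CPM, and Igfbp2 was higher there in 7 of 8 animals. The same held in 4 of 5 germline HET animals. In the conditional line it was lower in the synaptic library in 3 of 4 WT, 3 of 5 HET and 3 of 3 HOM animals. Ptgds and Fmod rose on the TMM scale in conditional WT, by 0.24 and 0.35 (edgeR adjusted p = 0.0382 and 0.00932), and were at −0.29 and −0.18 with scaling by total counts (edgeR adjusted p = 0.0101 and 0.142). The Ptgds call was lost without any 1 of 3 of the 4 animals (male 1, male 2 or female 2; 0.15 and an adjusted p of 0.309 without male 2), and the Fmod call without male 2 (0.29, adjusted p = 0.0731). Without the animal as a block the adjusted p of Ptgds was 0.0713. In CPM Ptgds was lower in the synaptic library of each of those 4 animals. Ogn and Islr passed in none of the 4 comparisons on the TMM scale.

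**Figure D5:**
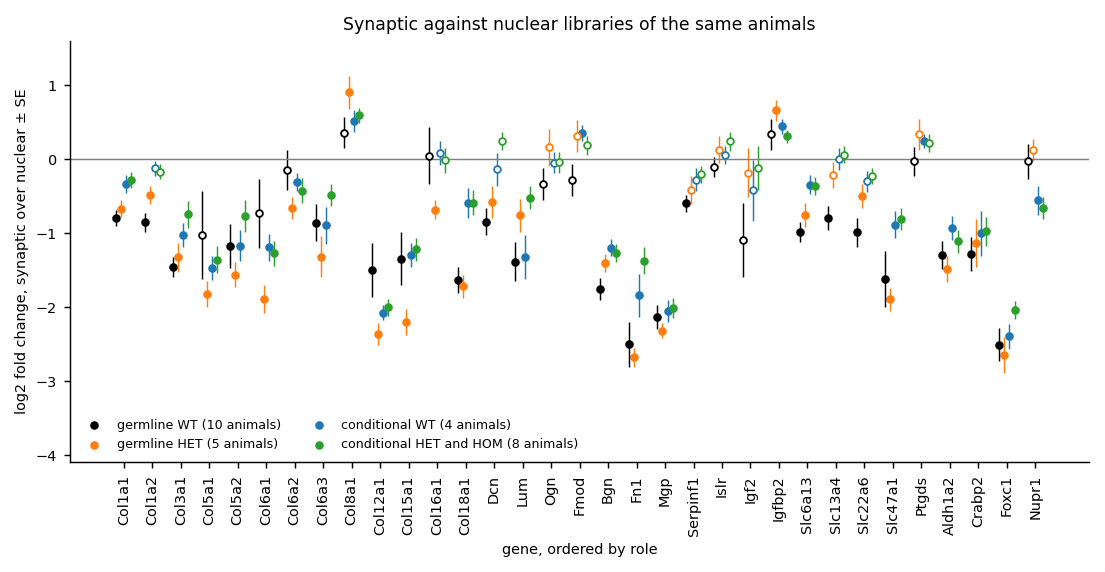
Log2 difference between synaptic and nuclear libraries of the same animals for each of the 33 genes in 4 groups of animals, with bars of 1 SE; filled points have an edgeR adjusted p under 0.05 and open points do not. Foxc1 and Mgp lie between −2.65 and −2.01 in all 4 comparisons, and Col8a1 and Igfbp2 lie above 0 in all 4 with the TMM scaling plotted here, though not in all 4 with scaling by total counts.

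The fall from nuclear to synaptic libraries was tested for dependence on genotype with an interaction term. No member passed by edgeR in germline HET, conditional HET or conditional HOM, and 0% of all genes did in each; 0, 1 and 2 members had an unadjusted p under 0.05, against 7.16%, 2.89% and 4.82% of genes. They were Lum in conditional HET (0.91, adjusted p = 1) and Aldh1a2 and Ogn in conditional HOM (−0.75 and −0.49, adjusted p = 0.896 for both).

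Genes outside this list that act on collagen were read in the same comparisons, on the TMM scale first. Of the collagen processing genes, the hydroxylases, chaperones, proteinases and crosslinking enzymes that finish collagen, 1 rose and 15 fell in germline WT, 7 rose and 14 fell in germline HET, 8 rose and 10 fell in conditional WT, and 10 rose and 11 fell in conditional mutants. Receptors for collagen and insulin-like growth factors gave 1 up and 7 down, 2 and 4, 3 and 3, and 4 and 3. Collagen-degrading proteinases and their inhibitors gave 4 up and 1 down, 6 and 1, 7 and 1, and 8 and 0. Tested in the 4 comparisons were 30, 28, 29 and 29 processing genes, 11, 10, 10 and 11 receptors, and 13 degradation genes in each. Of all genes, 30.8% rose and 35.1% fell, then 34.5% and 38.5%, 31.9% and 35.1%, and 34.2% and 37.1%. The processing genes in conditional mutants were near these shares. With scaling by total counts the degradation list gave 3 up and 5 down, 3 and 3, 4 and 3, and 4 and 5, the receptors 0 up and 8 down, 0 and 8, 2 and 6, and 2 and 7, and the processing genes 0 up and 23 down, 2 and 20, 3 and 16, and 3 and 19. With that scaling 9.69%, 13.5%, 13.1% and 13.6% of all genes rose and 54.5%, 56.8%, 56.3% and 63.2% fell. On the TMM scale the 15 basement membrane genes gave 0 up and 12 down, 0 and 12, 1 and 11, and 1 and 5, and the further fibroblast markers 0 up and 11 down, 2 and 10, 3 and 7, and 3 and 9. All 20 endothelial and mural markers tested fell in each of the 4 comparisons, with medians from −4.19 to −2.79, and the 8 nuclear-retained RNAs had medians from −4.49 to −2.76, against −0.98 to −0.49 for the members. All 8 nuclear-retained RNAs fell in each comparison under both scalings; all 8 neuronal markers rose in each on the TMM scale, and 8, 6, 7 and 5 of them with scaling by total counts. The part of vessel and nuclear RNA in the members' fall was not tested.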

How the data were processed

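Bulk RNA-seq of mouse cortex and its nuclear, synaptic and cytosolic fractions was analysed in 123 of 127 labelled bulk libraries (4 of the cytosolic ones are not used here). Values are raw read counts per gene, as the authors deposited them. The submitters' processing notes name STAR 2.5.4b, featureCounts 2.0.0 and the GRCm38 build. The conditional cortex table was counted with featureCounts 1.6.0 on Ensembl 95 without a strand option, per the file headers, so reads of a gene and of an antisense partner cannot be told apart there; Col5a1, Col15a1, Fn1 and Igf2 overlap an antisense exon. Counts between 10 and 200 were even in 56.3% to 74.7% of cases, so mates appear to have been counted singly in some tables. Symbols were matched for 54723 of 54838 gene IDs.

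Counts were fitted with edgeR 4.0.16 (R 4.3.3) by its quasi-likelihood test after filterByExpr and TMM scaling, with sex and, where labels gave batches, batch as covariates, and with the animal as a block between fractions. P-values were adjusted by Benjamini-Hochberg over all genes tested and called at 0.05. The test was tested on simulated counts. Levels per length used the union of exons. Correlations used log2 of CPM plus 0.1, with 100000 permutations per gene and adjustment over all genes of an experiment; each of the 7 experiments gave 1 family per measure. Sequences came from RefSeq (GRCm38.p6). No promoter is shown for Col1a1, Col5a2, Col12a1, Dcn, Lum, Fn1, Mgp, Slc47a1 and Crabp2.

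The members and lists were chosen with earlier results of these data known. All members could be named; levels by library are given for members called in a comparison and, in each role group, for the highest per kilobase and the smallest p in germline cortex. A gene of another list is named when called in a comparison of genotypes. Labels give separate animals as replicates. Alternatives were DESeq2 1.42.0, voom (limma 3.58.1), other scaling, no filter, other batch terms, a replicate block, each library left out and, added after seeing the data, nuclear-retained RNA as a covariate and scaling by total counts. Equal replicate numbers were checked for pairing by the correlation of same-numbered libraries' deviations from the means of their group and sex. Every same-numbered pair was above 0.1 for conditional nuclear HET (0.28 to 0.38, 4 pairs) and conditional synaptic HOM (0.11 to 0.28, 4 pairs) against WT. With so few WT libraries per sex the deviations mirror each other, so these pairs are not independent checks. The same animals gave −0.04 to 0.43 for conditional synaptic HET. The check cannot show that equal numbers pair libraries, and the main fits did not pair them. With the replicate number as a block 0 members were called in both comparisons, as without it.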

Additional observations from a re-analysis of the deposited data

Results flagged for a closer look

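For each role the summed level of its members was examined in every group of 4 to 10 libraries, and 6 of 99 such groups held 1 library far above the rest; chance flags about 1 in 20. Fibrillar collagens summed to 111 CPM in germline synaptic HET female 2, where the next library had 68.7 CPM. Other collagens summed to 40.9 CPM in germline synaptic HET female 1, with 30.9 CPM in the next. Collagen VI summed to 78.8 CPM in conditional cortex noCre male 2, with 47.8 CPM in the next, and that library also had the highest nuclear-retained RNA of its 14, at 4208 CPM. Fn1, Mgp, Serpinf1 and Islr summed to 56.7 CPM in conditional synaptic WT female 2, with 42.5 CPM in the next. Ptgds, Aldh1a2 and Crabp2 summed to 1210 CPM in germline nuclear HET female 3, with 815 CPM in the next. Foxc1 and Nupr1 summed to 6.9 CPM in conditional synaptic HOM male 1, with 5.48 CPM in the next.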

How the results depend on the processing

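Between fractions, scaling by total counts, chosen after seeing the data, reversed 5 called rises: Ptgds to −0.291, Igfbp2 to −0.092, Fmod to −0.183 and Col8a1 to −0.022 in conditional WT, and Igfbp2 to −0.209 in conditional mutants; the median of all genes shifted down as well. No other difference reversed among members called between fractions or with an unadjusted p under 0.05 between genotypes. The median over the members did change sign, or reach 0, in some refits. These were 1 of 30 in the germline nuclear fraction, 9 of 27 in the germline synaptic fraction and 7 of 21 in conditional cortex. There were also 8 of 22 in conditional synaptic HET and 1 of 16 for fraction by genotype in conditional HOM. Of the recomputed counts of called members 10 changed by over 1.5 times or from 0, 2 of them with 1 library left out. In germline cortex 1 member was called by DESeq2 (Slc47a1) and 1 by voom (Col1a1), and the shares of all genes these tools called are not given here. Without the filter on low counts 2 members were called in the germline nuclear fraction (Col1a2, Fn1), 1 in the germline synaptic fraction (Col5a1), 4 in conditional nuclear HOM (Col12a1, Fn1, Mgp, Slc47a1) and 3 in conditional synaptic HOM (Col1a2, Mgp, Slc47a1), all lower in the mutants, where 0.749%, 0.807%, 0.948% and 0.302% of all genes were called; the cause was not tested. In the germline synaptic fraction, nuclear-retained RNA as a covariate, chosen after seeing the data, called 2 members, Col6a1 at 0.40 (edgeR adjusted p = 0.026) and Col6a2 at 0.52 (edgeR adjusted p = 0.0389), with 2.21% of all genes called, and 6 batch levels moved the median log2 difference of the members from −0.05 to 0.49. Leaving out each library in turn gave 0 to 1 called members in germline cortex, 0 in the other comparisons of genotypes and in the tests of fraction by genotype, and 21 to 25, 23 to 28, 19 to 22 and 19 to 23 between fractions in germline WT, germline HET, conditional WT and conditional mutants. With the replicate number as a block, 2 members were called in the cytosolic fraction, Col5a1 and Col16a1 (1.51, edgeR adjusted p = 0.0105), with 0.922% of all genes called, and 0 in every other comparison of genotypes; without the animal as a block, the counts between fractions were 21, 26, 21 and 21. In the cytosolic fraction 1 of 3 same-numbered pairs deviated together (correlation over 0.1; range −0.27 to 0.69), so the numbers were not taken to pair those libraries. Depth limits most the members with the fewest counts, such as Lum and Crabp2 (medians of 1.754 and 1.934 CPM in germline WT cortex).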
